A study of Homo sapiens with 12 samples.

Results

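The comparison described here is HepG2 cells with the HDAC1_S434A mutant (S434A) against HepG2 cells with wild-type HDAC1 (WT), both treated with H89. It rests on the 6 libraries labelled as treated, 3 of each genotype, of 12 libraries in all, and the libraries were taken by their labels alone. The other 6 libraries are the same genotypes without H89, 3 of each, and entered only where the genotype difference with H89 was compared with that without it. HepG2 is a human liver cancer cell line, the replicates are described by the submitters as biological, and messenger RNA was measured by sequencing. All treated libraries share the H89 exposure, so the comparison holds no untreated control of its own. The dose and duration of H89, the way the mutant cells were made, whether they retained wild-type HDAC1 and whether a genotype is 1 clone are matters not given in the sources used here.

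HDAC1 is a class I histone deacetylase. It removes acetyl groups from histone tails and works in corepressor complexes such as NuRD, Sin3 and CoREST. Protein kinase A (PKA) is switched on by cyclic AMP (cAMP), and in liver cells it carries the glucagon signal, in large part through the transcription factor CREB and its target genes. H89 blocks the ATP site of PKA and also inhibits other kinases. Serine to alanine changes, such as S434A, remove a hydroxyl group that a kinase could phosphorylate.

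Under H89 the genotypes had closely similar transcriptomes. Of 13917 genes tested in edgeR, 0 differed by more than 2-fold at an adjusted p under 0.05, and 0 passed at any fold. The smallest adjusted p in edgeR was 0.159. At an unadjusted p under 0.05 there were 1593 genes (11.4% of those tested), of which 746 were higher in S434A (5.36%) and 847 lower (6.09%). DESeq2 on the same 6 libraries gave an adjusted p to 5283 genes and called 78 of them (1.48%), 69 lower (1.31%) and 9 higher (0.17%), with 0 past 2-fold. Limma-voom called 0. The result turns on WT replicate 3 and on the filter. Without WT replicate 3 edgeR called 590 of 14169 genes (4.16%), 384 lower (2.71%) and 206 higher (1.45%), of which 7 passed 2-fold. With all 6 libraries and no filter on counts, edgeR called 241 genes, of which 238 also pass the filter.

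The intervals show how close the levels were. A 95% interval of the log2 fold change lay wholly within 2-fold for 13138 genes (94.4%) and wholly within 1.5-fold for 11020 genes (79.2%). The median absolute log2 difference between the genotypes was 0.09, and the middle 95% of genes lay between −0.37 and 0.45. The estimate itself exceeded 2-fold for 15 genes, 6 higher and 9 lower in S434A, and their median level was 0.541 CPM (counts per 1000000 counts of the library, TMM-scaled) against 18.5 CPM for all genes tested. Of the 3480 genes with the lowest levels (mean 0.373 to 3.90 CPM), 77.7% had an interval within 2-fold, and in each of the 3 groups of 3479 genes above them the share was at least 99.9%. For the rest of the 3480 genes a 2-fold difference was not excluded at this depth.

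**Figure D1:**
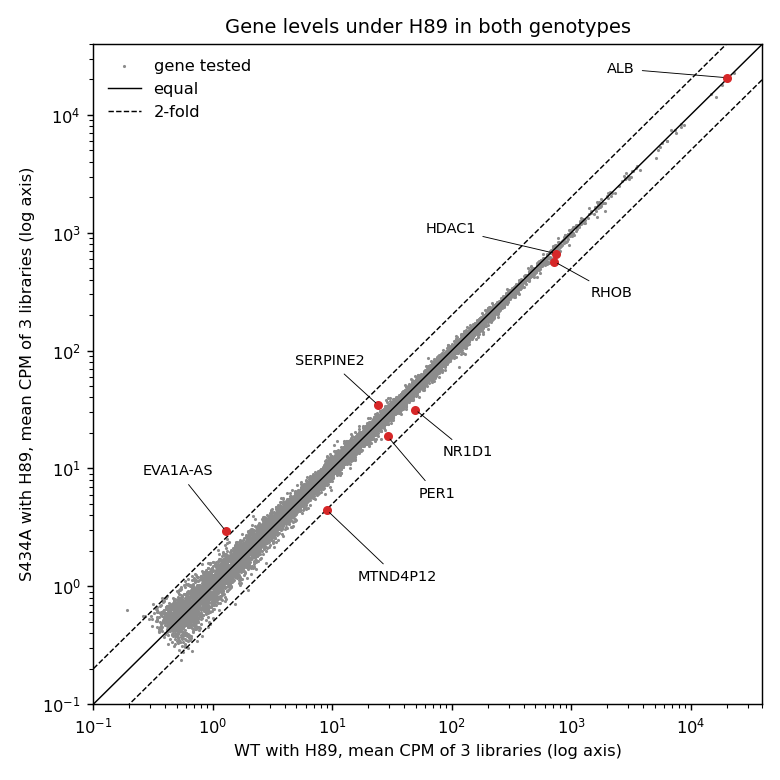
Mean CPM of the 3 WT libraries (x axis) and of the 3 S434A libraries (y axis) with H89 for each gene tested, both axes logarithmic. The solid line marks equal levels and the dashed lines 2-fold. Genes lie along the line over the whole range, and the few outside the dashed lines are mostly near or below 1 CPM.

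Total counts ran from 20064967 to 22648485 in S434A and from 20223311 to 21922022 in WT with H89. Mitochondrially encoded genes took 4.91% to 6.26% of counts, with both ends of that range in WT. Ribosomal protein genes took 7.999% to 8.012% in S434A and 7.44% to 7.84% in WT. Hepatoma markers were high in all 6 libraries, with ALB at 18101 CPM or more before TMM scaling, while PTPRC, CD3E, HBB, KDR, TEK, COL1A2, DCN, THY1, FAP and POSTN had 0 counts. PDGFRB was the 1 of 10 fibroblast markers tested, and 4 of 11 measured blood and endothelial markers were tested, the most abundant being CD14 at 13.03 to 16.47 CPM. In bulk RNA, fewer cells of a type and less RNA per cell cannot be told apart.

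Distances between single libraries placed the genotype difference beside the replicate spread. The median absolute log2 difference between an S434A and a WT library ran from 0.0984 to 0.168 over 9 pairs, that is 1.07-fold to 1.12-fold for a typical gene. Within WT the 3 pairs ran from 0.0980 to 0.150, and within S434A from 0.111 to 0.1199. The range between genotypes thus overlapped the range within WT, and 3 of the 6 libraries (S434A replicates 1 and 2 and WT replicate 3) had a library of the other genotype as their nearest. WT replicate 3 was on average farther from its own genotype (0.147) than from S434A (0.124). Every other library was on average nearer its own genotype. The gap was least for S434A replicate 1 (0.116 against 0.123) and largest for S434A replicate 3 (0.111 against 0.155). In the untreated libraries the same measure between genotypes ran from 0.490 to 0.851, with 0.265 to 0.518 among S434A and 0.0755 to 0.0853 among WT. In the same scale, set on all 12 libraries, the pairs between genotypes with H89 ran from 0.105 to 0.170.

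**Figure D2:**
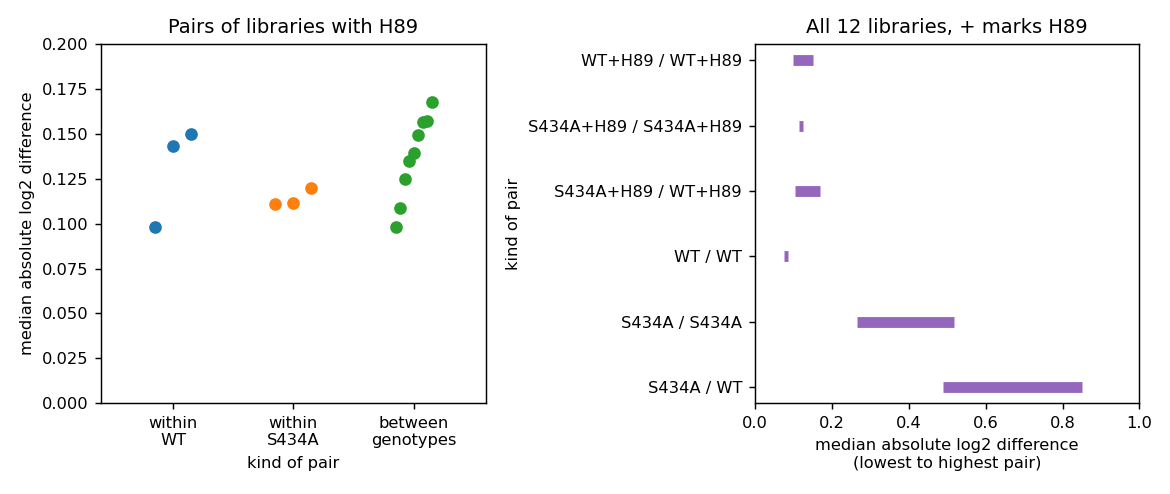
Left, the median absolute log2 difference (y axis) for each of the 15 pairs of libraries with H89, by kind of pair. Right, the lowest to highest pair (x axis) for kinds of pairs among all 12 libraries, with + for H89. The pairs between genotypes with H89 reach 0.168, and those between genotypes without H89 start at 0.490.

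HDAC1 itself (hg19 chr1:32757684-32799236) had 755, 722 and 773 CPM in WT replicates 1 to 3 and 669, 729 and 597 CPM in S434A. The lowest WT value lay just below the highest S434A value, so the groups overlapped. The log2 fold change was −0.17 (SE 0.065, 95% interval −0.31 to −0.03), which did not pass in edgeR (adjusted p = 0.361). Counts per gene do not show the substitution, so this level does not check the genotype labels. HDAC2, the close paralog in the same complexes, stood at −0.00 with an interval of −0.16 to 0.16, and HDAC3, another class I deacetylase, at −0.05 (−0.16 to 0.07). Of the 16 tested members of the HDAC family 0 passed in edgeR. At an unadjusted p under 0.05, 2 were lower, HDAC1 and HDAC5, and 0 higher, beside 6.09% and 5.36% of all genes tested. HDAC5, a class IIa deacetylase that shuttles out of the nucleus when phosphorylated, had a log2 fold change of −0.16 (SE 0.060). Of 37 subunits and partners of class I HDAC corepressor complexes, 0 passed in edgeR, and the median was −0.04. At an unadjusted p under 0.05, 2 were lower and 0 higher (all genes: 6.09% and 5.36%). DESeq2 passed 1, which was lower (1.48% of genes overall). Without WT replicate 3, edgeR passed 2 as lower, beside 4.16% of all genes in that fit. KDM1A, the demethylase of CoREST, stood at −0.05 and RBBP7, a histone chaperone of several of these complexes, at 0.01.

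The most abundant mRNAs were nearly level. ALB (albumin) had a log2 fold change of 0.04 (SE 0.069), EEF1A1 and EEF2 (translation elongation factors) 0.03 and −0.02, FTL (ferritin light chain) −0.06 and APOB (the main protein of very low density lipoprotein) −0.10. SERPINA1, A2M, TF and AHSG, plasma proteins of the liver, stood between −0.10 and −0.05. FN1 (fibronectin) stood apart from the other 9 with 16415, 17463 and 15145 CPM in WT and 15219, 13674 and 13443 CPM in S434A. Its log2 fold change was −0.21 (SE 0.063), the groups overlapped only in that WT replicate 3 lay below S434A replicate 1, and edgeR did not pass it (adjusted p = 0.277). The 15 hepatoma identity markers all had intervals within 1.5-fold and estimates between −0.10 and 0.06, among them AFP (0.01) and HNF4A (0.01).

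The list of cAMP, PKA and CREB-responsive genes carried the lowest median of the 28 gene lists. Of 24 listed genes 20 were tested, and in edgeR 0 passed in either direction. At an unadjusted p under 0.05, 8 were lower in S434A and 2 were higher, beside 6.09% and 5.36% of all genes tested. The median log2 fold change of the 20 was −0.20, beside 0.01 for all genes. The range of that median over the 15 alternative settings was −0.30 to −0.13. DESeq2 passed 1 member, ID1, beside 1.48% of the 5283 genes it gave an adjusted p. It gave none to many members, among them PER1, FOS, EGR1 and NR4A1, so these could not pass there. Without WT replicate 3, edgeR passed 2 members, PER1 lower and ID1 higher, beside 4.16% of all genes in that fit.

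Promoter stretches of 4 of the 8 lower members are shown because they hold the letters of a CREB half-site or, for PER1, of an E-box. Sequences are from RefSeq on GRCh38.p14, run 5′ to 3′ from base −250 to base −51 before the annotated start, and lie at chr14:75278578-75278777 (plus strand), chr5:138465229-138465428 (plus strand), chr5:172771246-172771445 (minus strand) and chr17:8152455-8152654 (minus strand). Capitals mark TGACG or its reverse complement CGTCA in FOS, EGR1 and DUSP1, and CACGTG in PER1.
FOS: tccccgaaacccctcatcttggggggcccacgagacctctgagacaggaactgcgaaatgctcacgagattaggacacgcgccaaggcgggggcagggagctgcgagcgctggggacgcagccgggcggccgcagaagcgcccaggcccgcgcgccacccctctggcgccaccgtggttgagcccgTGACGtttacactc
EGR1: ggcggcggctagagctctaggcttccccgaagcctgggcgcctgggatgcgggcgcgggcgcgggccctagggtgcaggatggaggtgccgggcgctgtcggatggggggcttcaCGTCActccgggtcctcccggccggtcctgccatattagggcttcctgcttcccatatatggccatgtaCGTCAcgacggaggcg
DUSP1: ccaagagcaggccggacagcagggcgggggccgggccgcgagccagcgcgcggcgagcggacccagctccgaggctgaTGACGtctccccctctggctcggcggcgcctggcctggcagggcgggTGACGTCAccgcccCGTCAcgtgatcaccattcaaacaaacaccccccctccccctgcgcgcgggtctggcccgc
PER1: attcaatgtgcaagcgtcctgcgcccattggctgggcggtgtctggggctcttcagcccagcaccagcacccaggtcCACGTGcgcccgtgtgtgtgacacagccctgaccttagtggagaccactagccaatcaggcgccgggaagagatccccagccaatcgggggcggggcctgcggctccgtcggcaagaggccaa
DUSP1 holds the full palindrome TGACGTCA, within which both half-sites overlap. Over the 250 bases before the start and on both strands, TGACG was in 4 of 7 promoters (57.1%) of the 6 lower members that the RefSeq table holds, in 11 of 35 promoters (31.4%) of the 17 tested members it holds, in 27.5% of 14881 promoters of genes tested and in 21.2% of all 35116 promoters. Among the genes lower by DESeq2, TGACG was in 22 of 76 promoters (28.9%), near the share for genes tested. TGACGTCA was in 2 of the 35 (5.71%), in 2.52% of promoters of genes tested and in 1.65% of all. CACGTG was in 5 of the 35 (14.3%), in 8.31% of promoters of genes tested and in 6.34% of all. Several members have more than 1 promoter in that table. These matches describe letters and no binding.

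Immediate early genes, which are transcribed within minutes of a signal, were among the lower members. PER1, a repressor of the circadian clock and a CREB target, had 32.1, 29.7 and 25.4 CPM in WT and 21.7, 19.9 and 14.5 CPM in S434A. Every S434A library lay below every WT library, and the log2 fold change was −0.64 (SE 0.14, adjusted p = 0.223 in edgeR). FOS, a subunit of AP-1, had 6.02, 3.94 and 3.93 CPM in WT and 3.63, 3.08 and 2.79 CPM in S434A. Its log2 fold change was −0.55 (SE 0.19), again with no overlap, and WT replicate 1 stood above all other libraries. EGR1, a zinc finger factor, had 25.2, 21.7 and 23.6 CPM in WT and 17.9, 20.5 and 19.4 CPM in S434A, a log2 fold change of −0.28 (SE 0.087). NR4A1, an orphan nuclear receptor, had 17.02, 16.88 and 16.52 CPM in WT and 13.02, 15.97 and 11.41 CPM in S434A, a log2 fold change of −0.32 (SE 0.11). In both genes the groups did not overlap, which was so for 1075 genes tested in this direction (7.72%) and for 1295 in the other (9.31%). FOSB and JUNB, further AP-1 subunits, had log2 fold changes of −0.52 (SE 0.28) and −0.20 (SE 0.11) with unadjusted p above 0.05.

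DUSP1, a phosphatase of MAP kinases, had 44.7, 33.4 and 46.2 CPM in WT and 28.5, 40.2 and 26.6 CPM in S434A. S434A replicate 2 lay within the WT range, and the log2 fold change was −0.38 (SE 0.15). BTG2, an antiproliferative gene, was at −0.20 (SE 0.078), and CRTC2, the coactivator that CREB recruits in the fasting liver, at −0.17 (SE 0.077).

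The gluconeogenic targets went in different directions. PCK1, which makes phosphoenolpyruvate from oxaloacetate, had 73.3, 68.2 and 62.1 CPM in WT and 60.3, 61.5 and 45.9 CPM in S434A. The groups did not overlap, and the log2 fold change was −0.28 (SE 0.10, adjusted p = 0.361 in edgeR). G6PC1, the phosphatase that releases glucose, had 22.5, 25.2 and 21.8 CPM in WT and 32.69, 25.02 and 28.36 CPM in S434A. S434A replicate 2 lay within the WT range, and the log2 fold change was 0.31 (SE 0.099, adjusted p = 0.317 in edgeR). PPARGC1A, the coactivator that drives these enzymes in fasting, stood at −0.04 with an interval of −0.16 to 0.09, and CREM, a CREB-related factor, at 0.09 (SE 0.10). ID1, an inhibitor of basic helix-loop-helix factors, had 181, 189 and 197 CPM in WT and 222, 222 and 220 CPM in S434A. Its S434A libraries were nearly identical and all above WT, with a log2 fold change of 0.23 (SE 0.051) that passed in DESeq2 (adjusted p = 0.0389) and not in edgeR (0.223).

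The list of PKA subunits and cAMP signalling genes, which also holds coactivators of CREB, did not share the low median. Of 28 tested PKA subunits and cAMP signalling genes 0 passed in edgeR, 5 were lower and 2 higher at an unadjusted p under 0.05 (all genes: 6.09% and 5.36%), and the median was 0.00. PRKAR1A, a regulatory subunit of PKA, stood at 0.11 (SE 0.058) and GNAS, the stimulatory G protein, at −0.07 (SE 0.056). CRTC1, EP300 and CREBBP, coactivators that work with CREB, were among the 5, at −0.30 (SE 0.10), −0.17 (SE 0.056) and −0.15 (SE 0.065).

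**Figure D3:**
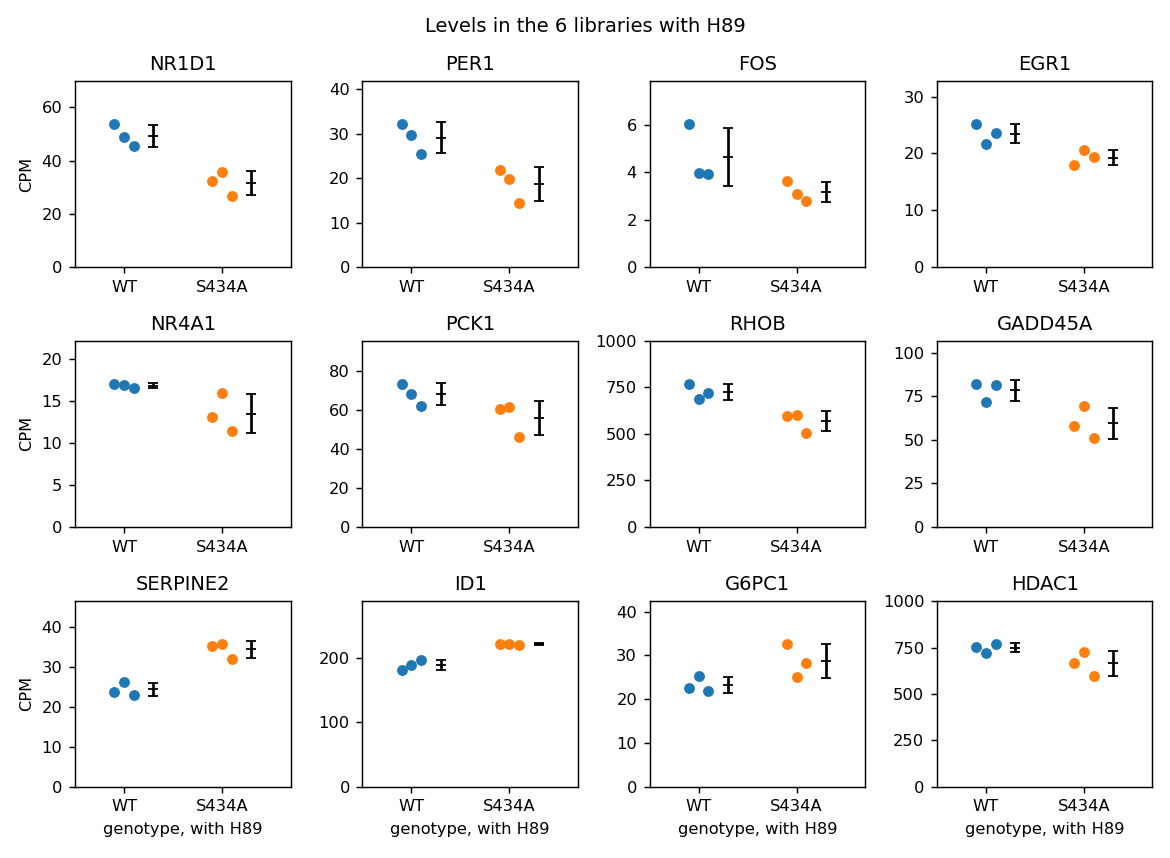
CPM (y axis, from 0) in each WT and S434A library with H89 for 12 genes, 1 dot per library, with the mean and SD of 3 libraries to the right of the dots. NR1D1, PER1 and RHOB lie lower and SERPINE2 and ID1 higher in all 3 S434A libraries, while HDAC1 and G6PC1 overlap.

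No gene passed in edgeR, so the genes with the smallest p were picked after their values were seen, and they are given as values. NR1D1 (REV-ERBα, a heme-binding repressor of the clock, hg19 chr17:38249046-38256842) had 53.7, 48.9 and 45.6 CPM in WT and 32.3, 35.8 and 26.7 CPM in S434A. The lowest WT library lay well above the highest S434A library. The log2 difference was −0.65 (SE 0.099, 95% interval −0.86 to −0.43), with an adjusted p of 0.159 in edgeR and 3.02e-06 in DESeq2. NR1D1 overlaps THRA on the opposite strand in the deposited annotation, and without a strand setting reads from the shared end cannot be assigned to 1 of them. THRA, the thyroid hormone receptor alpha gene, stood at −0.09 (SE 0.058).

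Clock genes were gathered after NR1D1 and PER1 had been seen. Of 14 tested, 11 had a lower estimate in S434A, and the median was −0.18, beside 0.01 for all genes. At an unadjusted p under 0.05, 5 were lower and 0 higher (all genes: 6.09% and 5.36%). NR1D1 and PER1 are counted in these values, so the counts and the median are no separate support. Besides NR1D1 and PER1 the 5 were CRY2, a cryptochrome (−0.26, SE 0.084), TEF, a PAR bZIP factor (−0.19, SE 0.076), and BHLHE40, a repressor of E-box genes (−0.17, SE 0.070). PER2 was at −0.20 (SE 0.098), DBP at −0.23 (SE 0.14) and BMAL1, the activator of the loop, at −0.19 (SE 0.13). Its partner CLOCK was at 0.07 and CRY1 at −0.07, NR1D2 at −0.08 and PER3 at 0.14, each with an interval that spans 0.

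Among the other lower genes with small p, RHOB, a small GTPase, had 769, 688 and 719 CPM in WT and 599, 599 and 507 CPM in S434A, a log2 fold change of −0.35 (SE 0.068) that passed in DESeq2 (adjusted p = 0.00301). BCL6, a repressor that binds HDAC-containing corepressors, had 162, 156 and 159 CPM in WT and 130, 133 and 111 CPM in S434A. Its log2 fold change was −0.35 (SE 0.066, adjusted p = 0.00334 in DESeq2). In both genes all S434A libraries lay below all WT libraries, and S434A replicate 3 was the lowest. EPHA2, a receptor tyrosine kinase, was at −0.30 (SE 0.058), PIM1, a serine/threonine kinase, at −0.30 (SE 0.063), KLF6, a zinc finger factor, at −0.41 (SE 0.098), and all 3 passed in DESeq2. ZFP36, which binds AU-rich mRNAs and speeds their decay, was at −0.47 (SE 0.10) and had no adjusted p in DESeq2.

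Fewer genes with small p were higher in S434A. SERPINE2 (protease nexin 1, hg19 chr2:224839762-224904035) had 23.8, 26.2 and 23.0 CPM in WT and 35.2, 35.8 and 32.0 CPM in S434A. The groups were well apart. The difference was 0.50 on the log2 scale (SE 0.079), and edgeR gave an adjusted p of 0.159. CD109, a membrane protein that binds TGF-beta receptors, had 9.106, 9.998 and 11.74 CPM in WT and 14.5, 16.9 and 16.1 CPM in S434A, a log2 fold change of 0.62 (SE 0.11). SLC7A11, the cystine transporter, was at 0.43 (SE 0.13) and passed in DESeq2 (adjusted p = 0.0484). EVA1A-AS, a noncoding gene antisense to EVA1A, had 1.19, 1.33 and 1.34 CPM in WT and 2.50, 2.79 and 3.49 CPM in S434A. Its log2 fold change of 1.18 (SE 0.19) is over 2-fold in the estimate, with an interval of 0.76 to 1.60 and an adjusted p of 0.159 in edgeR. EVA1A itself stood at 65.7 ± 1.75 CPM in WT against 65.8 ± 2.34 CPM in the mutant (SD, n = 3), and without strand the reads of this pair are uncertain. MTND4P12, a pseudogene copy of mitochondrial MT-ND4, was the other gene over 2-fold with a mean of at least 2 CPM, at 7.17, 10.9 and 8.91 CPM in WT and 2.41, 6.77 and 4.14 CPM in S434A. It can take reads from MT-ND4, which stood at 0.01 (SE 0.086), and its value is uncertain for that reason.

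The genes that passed in DESeq2 had a median level of 113 CPM. The 5283 genes given an adjusted p had a median of 72.8 CPM, against 18.5 CPM for all genes tested. A called gene thus came from the more abundant genes to begin with. Of the 78, 77 are protein coding, beside 11906 of the 13917 genes tested. The 69 lower of the 78 lay between −0.66 and −0.20 and the 9 higher ones between 0.21 and 0.42 on the log2 scale of DESeq2. In 76 of the 78 the groups did not overlap, beside 17% of all genes tested. Without WT replicate 3, 72 of the 78 passed in edgeR, beside 4.16% of all genes in that fit. The 78 were picked by p on the same 6 libraries, 5 of which are in that fit, so neither count is separate support. GC content was higher in the lower genes, with a median of 0.562 against 0.498 over the 5283 genes with an adjusted p. After a smooth trend on GC content and exon length was removed, 69 of 69 kept a lower and 9 of 9 a higher estimate, and edgeR passed 18 and 3 of them. Over all genes the log2 fold change had a Spearman rho of −0.18 with GC content, −0.11 with exon length and −0.18 with mean CPM, across genes of the same 6 libraries. The part of base composition in the result was not tested further.

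**Figure D4:**
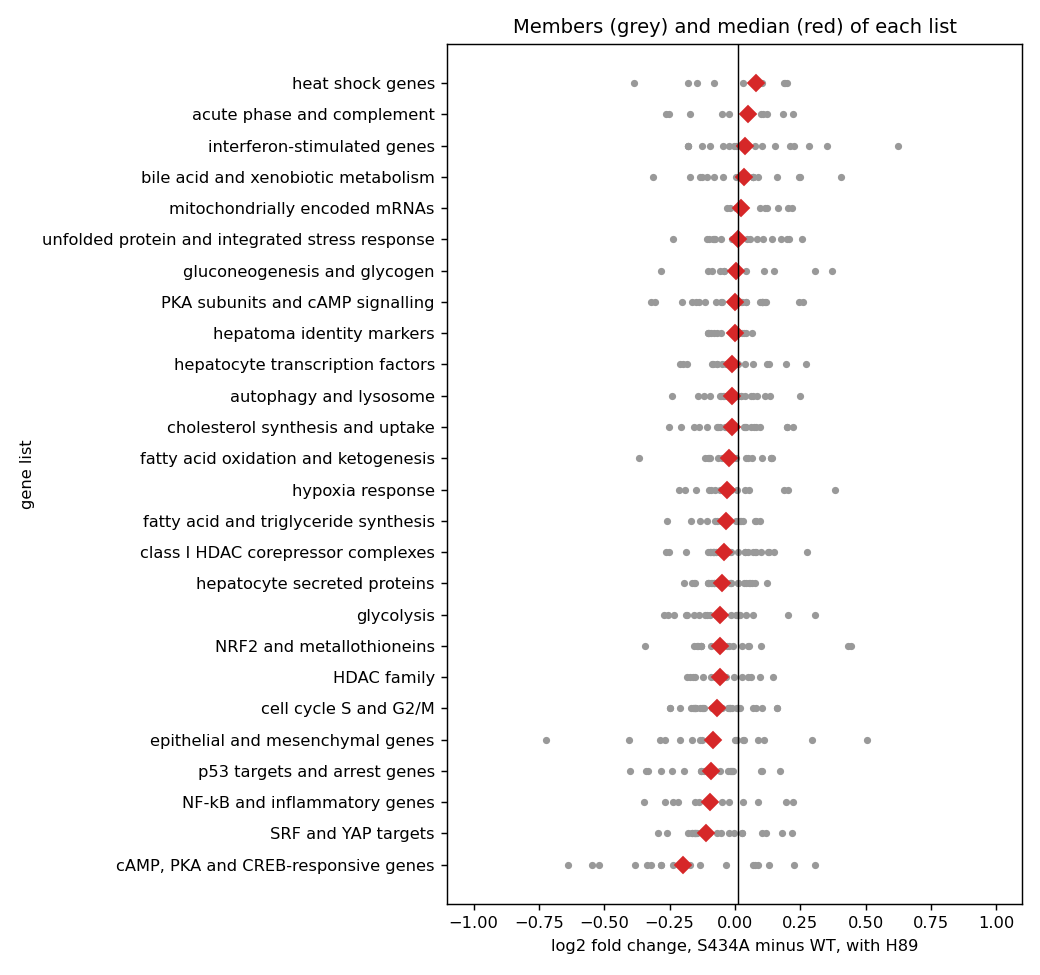
Log2 fold change of S434A minus WT with H89 (x axis) for the tested members (grey dots) and median (red diamonds) of the 26 gene lists with at least 5 tested members, ordered by median. The vertical line is the median of all genes tested. The cAMP, PKA and CREB-responsive list has the lowest median, −0.20, and most other medians lie within 0.1 of 0.

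Targets of p53 and of NF-kB had medians of −0.09 each. Of 20 p53 targets and arrest genes, 0 passed in edgeR and 7 were lower and 0 higher at an unadjusted p under 0.05, beside 6.09% lower and 5.36% higher of all genes tested. GADD45A, a stress sensor, had 82.3, 71.7 and 81.5 CPM in WT and 57.7, 69.4 and 51.3 CPM in S434A, a log2 fold change of −0.40 (SE 0.098). BBC3 (PUMA, a BH3-only apoptosis gene) was at −0.34 (SE 0.078) and GDF15, a stress cytokine, at −0.33 (SE 0.089). These 3 passed in DESeq2 (adjusted p = 0.0125, 0.0169 and 0.0169), with no overlap of the groups. CDKN1A (p21), the cell cycle inhibitor, was at −0.24 (SE 0.081) with overlap, and PLK2, a polo-like kinase, at −0.28 (SE 0.11). TNFRSF10B, a death receptor, was at −0.13 (SE 0.052), while CCNG1, the most abundant after GDF15, was at −0.03 (SE 0.069). Not all of the list was as low. The 20 estimates ran from −0.40 to 0.17, 17 lower and 3 higher, and their 75th percentile was −0.01. Of 12 NF-kB and inflammatory genes 0 passed in edgeR and 4 were lower and 0 higher at an unadjusted p under 0.05 (all genes: 6.09% and 5.36%). TNFAIP3 (A20), an inhibitor of NF-kB, had 173, 165 and 157 CPM in WT and 130, 148 and 111 CPM in S434A, a log2 fold change of −0.35 (SE 0.087). ICAM1, an adhesion molecule, was at −0.27 (SE 0.069), and both passed in DESeq2. NFKB2 and IER3 were at −0.24 and −0.22, and the abundant members CCL20 and NFKBIA at 0.09 and −0.15.

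Matrix and junction genes were mixed. Of 19 epithelial and mesenchymal genes 0 passed in edgeR, 6 were lower and 2 higher at an unadjusted p under 0.05 against 6.09% and 5.36% of all genes, and the median was −0.08. TGFB1 was at −0.27 (SE 0.0825) and SNAI1, a repressor of epithelial genes, at −0.40 (SE 0.15). DESeq2 passed 1 member, which was lower (1.48% of genes overall). The tight junction genes OCLN and CLDN2 were at 0.29 (SE 0.11) and 0.50 (SE 0.22), and COL4A2, a basement membrane collagen, at −0.72 (SE 0.28). Mean levels were 11.7 CPM for OCLN but 1.11 CPM for CLDN2 and 0.726 CPM for COL4A2. CLDN2 and COL4A2 thus fall among the genes of lowest level (0.373 to 3.90 CPM). Of 22 SRF and YAP targets 5 were lower and 1 higher at that level, against the same 6.09% and 5.36%, with a median of −0.11. LATS2, a kinase of the Hippo pathway, was at −0.30 (SE 0.081), TPM1 (tropomyosin) at 0.22 (SE 0.0873), and the actins ACTB and ACTG1 at −0.05 and −0.02.

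Mitotic genes showed small differences. Of 30 genes of S phase and G2/M 0 passed in edgeR, and 8 were lower and 1 higher at an unadjusted p under 0.05 (6.09% and 5.36% over all genes), with a median of −0.07. TPX2, a spindle assembly factor, had 218, 222 and 224 CPM in WT and 198, 183 and 178 CPM in S434A, a log2 fold change of −0.25 (SE 0.054) that passed in DESeq2 (adjusted p = 0.0162). CDC20 and PLK1, regulators of mitosis, were at −0.25 (SE 0.063) and −0.21 (SE 0.068). KIF20A and INCENP, a kinesin and a chromosomal passenger protein outside the list, were at −0.35 (SE 0.070) and −0.31 (SE 0.063). E2F1, which drives S phase genes, was at 0.16, MCM3, a replication helicase subunit, at 0.01 and TOP2A, the abundant topoisomerase of dividing cells, at −0.16 (SE 0.12).

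Interferon-stimulated and mitochondrial genes had medians of 0.04 and 0.02, whose sign was not kept over the alternative settings (−0.04 to 0.09 and −0.03 to 0.15). Of 19 tested interferon-stimulated genes 3 were higher and 0 lower at an unadjusted p under 0.05, and of 13 mitochondrially encoded mRNAs likewise 3 and 0, beside 5.36% higher and 6.09% lower of all genes, while 0 passed in edgeR. OAS1, an RNA sensor, was at 0.35 (SE 0.0916), ISG15 at 0.23 (SE 0.0808) and MX1 at 0.62 (SE 0.26), and the abundant members B2M and IFITM3 at 0.08 and −0.00. MT-ND3 was at 0.22 (SE 0.0593) and MT-ATP6 and MT-ND2 at 0.16 and 0.20, while MT-CO1 was at −0.03. In the antioxidant (NRF2) list OSGIN1 was at −0.34 and SLC7A11 at 0.43, and both passed in DESeq2. The medians of gluconeogenesis, glycolysis, fatty acid and cholesterol synthesis, fatty acid oxidation and bile acid genes lay between −0.06 and 0.04. DESeq2 passed 1 member of these lists, a glycolysis gene that was lower (1.48% of genes overall). Without WT replicate 3, edgeR passed 4 lower and 2 higher of 24 glycolysis genes, beside 4.16% of all genes. It also passed 4 lower of 23 cholesterol genes, 3 lower of 18 fatty acid synthesis genes and 1 in each remaining list.

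Differences were small on every chromosome. Median log2 fold changes per chromosome ran from −0.02 on chromosome 19 to 0.06 on chromosome 21, with 0 genes passing on each in edgeR. Over 264 windows of 50 neighbouring tested genes the median ran from −0.07 to 0.09, and 0 windows lay beyond 0.2 either way. Chromosome 19 held 105 genes lower and 42 higher at an unadjusted p under 0.05, of 1033 tested, where the shares over all genes were 6.09% and 5.36%.

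The genotype difference with H89 was then set against that without H89, in 1 fit of all 12 libraries. With H89 the median absolute log2 fold change was 0.10, and 84.8% of 14435 genes had an interval within 2-fold. Without H89 the median was 0.59, 45.1% had such an interval, and 8418 genes passed (58.3%). The test of the difference between the 2 genotype effects passed 6935 genes (48.0%), 3469 with a higher and 3466 with a lower effect under H89, and 3491 of them (24.2%) by more than 2-fold. The untreated libraries differed in composition, with ribosomal protein genes at 9.60% to 11.6% of counts in S434A and 19.6% to 20.1% in WT and mitochondrial genes at 3.16% to 7.02% and 1.48% to 1.51%. The part of this in the difference was not tested. Removal of the GC and length trend brought the count over 2-fold to 1854.

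Most of the genes that DESeq2 called lower in S434A with H89 had higher levels in S434A without it. Of the 69 lower genes in DESeq2, 64 had a higher estimate without H89, and 55 of the 69 passed as higher there in edgeR, beside 51.8% with a higher estimate, and 2044 passing as higher, among the 5283 genes with an adjusted p. Of all 78 genes 6 had the same sign in both conditions, and 63 passed the test of the difference, to which the value with H89 contributes. NR1D1 shows the pattern on the scale of 12 libraries: 13.1, 13.9 and 13.5 CPM in untreated WT, 32.7, 29.8 and 21.7 CPM in untreated S434A, 49.3, 45.0 and 43.1 CPM in WT with H89 and 30.0, 33.4 and 24.7 CPM in S434A with H89. S434A libraries thus overlapped between conditions, while the WT libraries lay below S434A without H89 and above it with H89. PER1 had a genotype effect of 1.19 without H89, EGR1 of 0.99, NR4A1 of 1.15 and BCL6 of 1.05, all passing in edgeR and all opposite to the value with H89. GADD45A (−0.57) and BTG2 (−0.26) were lower without H89 as well, and SERPINE2 was higher in both (0.64 without H89).

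**Figure D5:**
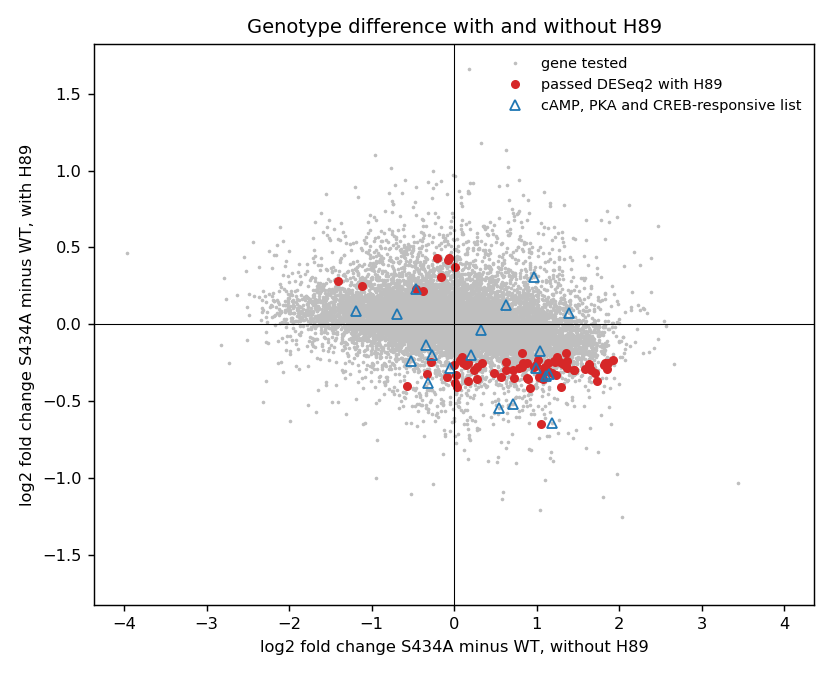
Log2 fold change of S434A minus WT without H89 (x axis, fit of 12 libraries) and with H89 (y axis, fit of 6 libraries) for the genes tested. Red dots are the 78 genes that passed in DESeq2 with H89 and triangles the 20 tested cAMP, PKA and CREB-responsive genes. The y values span a much narrower range than the x values, and 64 of the 69 lower red dots lie to the right of 0.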

How the data were processed

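RNA sequencing libraries of HepG2 cells were grouped by genotype and treatment from their labels. The table deposited by the authors holds read-pair counts per gene, unnormalized, and its header names featureCounts 2.0.1, exons of an hg19 annotation and no strand option, per the file headers. Bowtie 0.12.2 and hg19 are named per the submitters' processing notes. For library kit and batches the labels give nothing.

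The counts were tested in edgeR 4.0.16 (R 4.3.3) on the 6 libraries with H89: TMM factors, filterByExpr with a minimum count of 10, robust quasi-likelihood F tests, Benjamini-Hochberg adjustment over all genes tested. Both thresholds (2-fold, adjusted p 0.05) are those of the series design. Log2 fold changes are S434A minus WT, the SE is their size over the square root of F, and 95% intervals use the t quantile of the fit. The difference of genotype effects is the interaction in 1 fit of 12 libraries. Library distances used log2 CPM with a prior count of 2. Replicates 1 to 3 are listed in order. DESeq2 1.42.0 and limma-voom 3.58.1 were alternatives. GC content and gene types came from GENCODE through the identifiers (99.0% of genes tested had GC). Promoters were matched to RefSeq by symbol. The scripts were tested on simulated data.

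The 28 gene lists and the members were chosen with earlier results of these data known. Named genes were HDAC1, the 10 most abundant non-mitochondrial genes, and in lists the 2 of highest mean CPM where none passed. Further genes were chosen after their values were seen. A few genes are not reported here.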

Additional observations from a re-analysis of the deposited data

Results flagged for a closer look

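For 65 of the 102 named genes the genotype effect with H89 differed from that without H89 in the edgeR interaction test (adjusted p under 0.05), beside 48.0% of all genes tested; 51 of the 65 had a lower effect with H89. Values are log2 differences, with H89 minus without. Differences of −1.5 or beyond were found for EP300 (−1.84), FN1 (−2.24), CREBBP (−1.71), NR1D1 (−1.70), ICAM1 (−1.62), PER1 (−1.82), ZFP36 (−1.54), CRTC1 (−1.72), MTND4P12 (−4.46), MT-ND4 (−1.99), MT-CO1 (−1.54), MT-ATP6 (−1.66) and MT-ND2 (−1.62). Differences between −1.5 and −1 were found for BCL6 (−1.40), A2M (−1.28), INCENP (−1.44), BHLHE40 (−1.28), EGR1 (−1.27), TNFAIP3 (−1.07), PER2 (−1.12), CRTC2 (−1.21), NR4A1 (−1.47), EPHA2 (−1.01), OSGIN1 (−1.37), TGFB1 (−1.26), NFKB2 (−1.27), CRY2 (−1.12), ACTB (−1.04), SNAI1 (−1.31) and FOS (−1.08). Smaller negative differences were found for KIF20A (−0.91), GPC3 (−0.82), THRA (−0.95), LATS2 (−0.86), HNF4A (−0.98), KDM1A (−0.64), HDAC5 (−0.80), GNAS (−0.75), TPX2 (−0.41), PLK1 (−0.97), PIM1 (−0.53), TNFRSF10B (−0.45), ACTG1 (−0.70), RHOB (−0.63), SERPINA1 (−0.51), CDC20 (−0.58), TF (−0.51), AHSG (−0.49), G6PC1 (−0.66), IFITM3 (−0.38) and DBP (−0.74). Positive differences were found for ISG15 (1.27), HDAC3 (0.66), B2M (1.89), CREM (1.27), MT-ND3 (0.63), ID1 (0.69), RBBP7 (0.72), CCL20 (2.09), TPM1 (0.61), OAS1 (0.59), EVA1A-AS (0.86), EEF1A1 (0.32), AFP (1.76) and CCNG1 (1.20). Many of these genes were named for their value with H89, which is part of the difference. The cause was not tested.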

How the results depend on the processing

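With 3 libraries per group, calls depended on the processing. RLE or upper-quartile factors, limma-voom, a filter of at least 1 CPM in 3 libraries and a fit of all 12 libraries left 0 calls for S434A against WT with H89. Without a filter, edgeR called 241 genes, 7 over 2-fold, with 35 list members. Of the 241, 238 also pass the filter of the main fit, where 0 were called. DESeq2 called 78 genes at any fold, with 13 list members. Removal of the GC and length trend gave 32 calls, 1 over 2-fold, with 3 list members, and 1854 genes over 2-fold for the difference of genotype effects in place of 3491. The replicate block gave 4 calls, 1 over 2-fold and 1 a list member, but the numbers do not pair the libraries: deviations of same-numbered libraries correlated at 0.08, −0.19 and 0.03, and not every library correlated best with its own number. Leaving out 1 library gave 0 to 590 calls at any fold, 0 to 7 over 2-fold and 0 to 53 list members, and the high ends are without WT replicate 3. The leave-one-out range was 12766 to 12885 genes with an interval within 2-fold, 10376 to 10803 within 1.5-fold, and 3159 to 4468 genes over 2-fold for the difference of genotype effects (6123 to 8256 at any fold). The median distance between libraries was 0.140 between genotypes, 0.143 within WT and 0.112 within S434A. Without a filter the 3 values were 0.179, 0.174 and 0.152, and with the 1 CPM filter the value within S434A was 0.104. Leaving out 1 library moved them to 0.131 to 0.155, 0.0980 to 0.154 and 0.113 to 0.121. No named gene passed with a sign opposite to the reported one under any alternative run. The depth limits genes under about 4 CPM, where 77.7% of intervals lie within 2-fold.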
